A study of Mus musculus with 12 samples.

Results

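The Dlk1-Dio3 imprinted miRNA cluster was measured by quantitative PCR in carotid arteries of mice. It is a run of miRNA hairpins on mouse chromosome 12, and its members were chosen by name: all assays, of either arm, for 42 hairpins known to lie in this domain. The search found 57 assays for 39 of these hairpins among 513 miRNA assays with values, and the hairpins miR-341, miR-412 and miR-541 had no matching assay. The mice were female apoE-/- animals, which develop atherosclerosis on a fatty diet, aged 6 to 8 weeks, and for 6 weeks all ate a high-fat chow, which contained 21% crude fat and 0.15% cholesterol. In the ligated group the branches of the left common carotid artery were tied off except for 1 small outlet, which lowers and disturbs its flow. The control group was the untreated right carotid artery, so both groups share the apoE deletion and the diet, and the right artery of an operated mouse is not that of an unoperated animal. There were 6 arteries in each group, from 6 mice by the series text, and the labels do not say which arteries came from the same mouse. The tests treated the 12 arteries as independent.

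At this locus the protein genes Dlk1, Rtl1 and Dio3 are active on the chromosome inherited from the father, and the noncoding RNAs Meg3, Rian and Mirg and the miRNAs on the one inherited from the mother. The miRNAs are cut from long noncoding transcripts, so their genes can be active together. One group lies opposite Rtl1, a retrotransposon-derived gene, and several of its miRNAs cleave the Rtl1 messenger. The large group from miR-379 to miR-410 is best known in neurons of the brain, and in mouse limb muscle with blocked arteries, inhibitors of miR-329, miR-494, miR-487b and miR-495 improved the recovery of blood flow.

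Positions and sequences were taken from RefSeq (GRCm38.p6). All 57 assays matched a position there and 54 a mature sequence, by name, since the target sequence of each assay was not used here. The measured hairpins span 158007 bases, chr12:109585789-109743795, all between Dlk1 and Dio3. The mature sequences of the members on which the results turn are printed 5′ to 3′, all from the plus strand, with the seed, bases 2 to 8, in capitals. The first 5 are both arms of miR-411, with miR-485*, miR-495 and miR-543. Of these only miR-411* passed the test as lower in ligated arteries.
miR-411 (chr12:109710190-109710210): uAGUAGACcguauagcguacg
miR-411* (chr12:109710225-109710246): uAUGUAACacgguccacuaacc
miR-485* (chr12:109734946-109734967): aGUCAUACacggcucuccucuc
miR-495 (chr12:109718795-109718816): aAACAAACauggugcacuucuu
miR-543 (chr12:109717304-109717325): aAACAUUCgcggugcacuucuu
The next 5 are the always-detected members in which 1 artery, control 2, stood furthest above the other controls.
miR-431 (chr12:109590459-109590479): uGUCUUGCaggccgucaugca
miR-370 (chr12:109618305-109618326): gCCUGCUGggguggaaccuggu
miR-380-5p (chr12:109711806-109711827): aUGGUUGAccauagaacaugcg
miR-323-3p (chr12:109712558-109712578): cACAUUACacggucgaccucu
miR-409-3p (chr12:109743204-109743225): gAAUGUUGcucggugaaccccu
The last 3 are the member with the lowest threshold cycle, miR-127, and the members whose detection was split between samples, miR-433 and miR-154.
miR-127 (chr12:109592888-109592909): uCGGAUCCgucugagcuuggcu
miR-433 (chr12:109591781-109591802): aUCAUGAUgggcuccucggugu
miR-154 (chr12:109738438-109738459): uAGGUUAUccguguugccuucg
The 54 mature sequences held 53 different seeds, so the members are neighbours on the chromosome and not a seed family. The only seed shared by 2 assays was UGGAUAU, in miR-376b* and miR-376c*. The seed of miR-411*, AUGUAAC, is also that of miR-379-3p, whose hairpin lies in the same interval and whose 3p arm is not among the assays. miR-495 and miR-543 differ in their seeds but share their last 12 bases.

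A reading is a threshold cycle (Ct), the PCR cycle at which product appears. A lower Ct means more RNA, and 40 is the entry for a well without product. Detection required a Ct below 35. Of the 57 assays, 30 were detected in all 12 arteries, 17 in 1 to 11 of them and 10 in none. Counted by hairpin, 26 were detected in all 12 arteries through at least 1 arm. The 10 assays without detection were miR-376c*, miR-382*, miR-431*, miR-433*, miR-487b, miR-540-3p, miR-665, miR-666-5p, miR-679 and miR-758. The number of members detected per artery lay between 36 and 44. No member differed in detection between the groups at an unadjusted p below 0.05. The lowest p among members was 0.182 (Fisher's exact test, two-sided, adjusted p = 1). Of the 513 assays, 2 had an unadjusted p below 0.05 and 0 passed after adjustment. That adjustment included many assays that could not differ, 283 detected in all 12 arteries and 113 in none. With so few arteries per group, even an assay detected throughout a group and never in the other could hardly pass it alone. The adjusted values therefore do not decide whether detection differed.

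miR-127, which lies opposite Rtl1 and cleaves its messenger, had the lowest median Ct of the members over the 12 arteries, 22.4. It was followed by miR-434-3p from the same group at 22.9, then by miR-411 at 23.5 and miR-382 at 23.7, both from the group between miR-379 and miR-410. Among members detected in every artery the highest median Ct values were 31.1 for miR-381 and 31.2 for miR-154*. These readings order the assays only roughly, since the efficiency of each assay is unknown and Ct values of different assays are not amounts on 1 scale. All further values are log2 levels: the average Ct of the 283 miRNAs that every artery showed, minus the Ct of the assay, so that 1 unit is a doubling and 0 is the sample's average miRNA.

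In the untreated arteries the level of miR-127 ran from 2.38 to 3.67 with a median of 2.57, and in the ligated arteries from 2.11 to 2.79 with a median of 2.41. The groups overlapped, and the highest value belonged to control 2. The level of miR-434-3p ran from 1.19 to 4.03 in controls with a median of 2.33, and from 1.43 to 2.86 in ligated arteries with a median of 2.20. Again the groups overlapped and control 2 was the highest of the 12. That artery stood above the others over most of the cluster, as the map of the 30 always-detected members shows, so its values are given before the comparison.

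**Figure D1:**
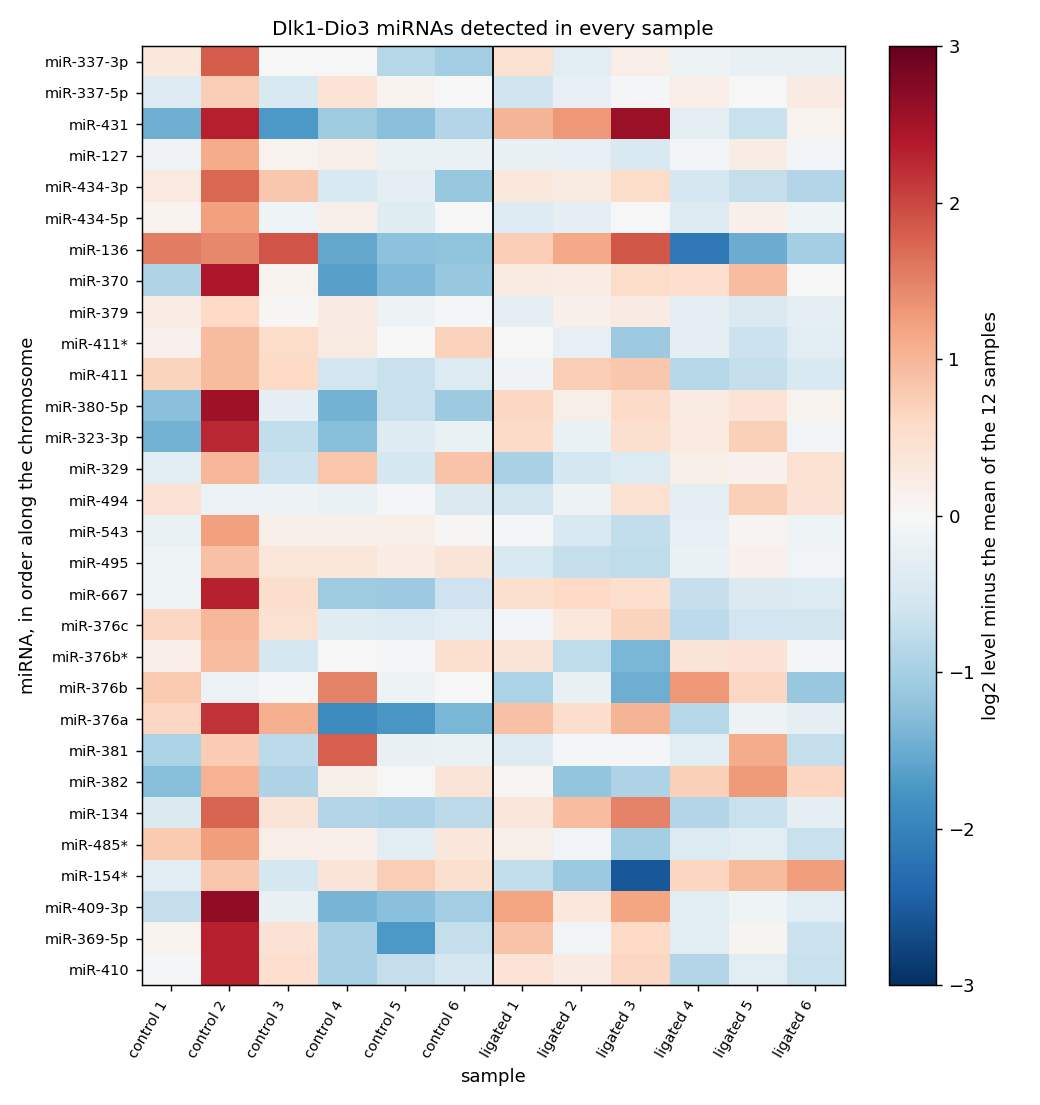
Log2 level of each of the 30 members detected in all 12 arteries, minus that member's mean over the 12, in order along the chromosome (vertical axis) and by artery (horizontal axis). Red is above the member's mean and blue below it. Control 2 is the reddest column, being the highest of the 12 arteries in 23 of the 30 members.

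Control 2 had the highest level of the 12 arteries in 23 of the 30 members (76.7%), against 43 of all 283 always-detected miRNAs (15.2%). Its mean level over the 30 members was -0.22, while the other 5 controls lay between -2.14 and -1.59 and the 6 ligated arteries between -1.85 and -1.50. It exceeded the mean of the other 5 controls by a median of 1.22 over the 30 members, and the same difference had a median of -0.14 over all 283 miRNAs. The excess was over 1 unit in 20 of the 30 members and in 52 of the 283 (18.4%). Its mean Ct over the 283 was 24.4, within a range of 23.3 to 26.4 over the 12 arteries.

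The excess of control 2 was uneven along the cluster. It was 3.60 for miR-431, known in mouse sensory neurons for promoting axon growth, and 3.59 for miR-409-3p, 3.50 for miR-380-5p, a repressor of p53 in neuroblastoma, 3.41 for miR-370 and 3.06 for miR-323-3p. It was 0.64 for miR-495, 0.63 for miR-411* and 0.54 for miR-379, and it was negative for miR-494 (-0.08) and miR-376b (-0.58). By place, the median excess was 1.55 over the 7 always-detected members of the Rtl1 group and 1.02 over the 18 that lie between Rian and Mirg. It was 2.79 over the 4 inside Mirg, while the only member inside Rian, miR-370, had the 3.41 given above. Members with a large and a small excess thus lay close together, as miR-411* and miR-380-5p do. The 1.55 of the Rtl1 group is the value of miR-136, for which control 2 (-0.48) lay below controls 1 (-0.38) and 3 (-0.02).

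Some neuronal marker miRNAs, above all miR-138, were also high in this artery. The list held 8 miRNAs known from neurons, miR-9, miR-124, miR-128a, miR-129-3p, miR-129-5p, miR-137, miR-138 and miR-219, of which 5 were detected in all 12 arteries and none was undetected throughout. Their summed level, on a linear scale where the average miRNA is 1, was 113 in control 2, between 6.87 and 28.0 in the other controls and between 16.7 and 29.9 in ligated arteries. miR-138 alone made up 84.8% of the sum in control 2, and the other 7 summed to 17.2 there, against 4.83 to 14.7 in the other controls and 4.32 to 19.6 in ligated arteries. Control 2 exceeded the mean of the other controls by 5.32 log2 units for miR-138, 3.87 for miR-124, the classical neuronal miRNA, and 2.93 for miR-137, but by 0.69 for miR-9, it was lower for miR-128a (-1.15), and miR-219 was undetected in it. Of the 7 list members tested, 0 passed the test between ligated and control arteries, where 12.4% of all tested miRNAs passed. With so few members, 0 is no result about the list. The same 12.4% is the background for the lists that follow. The smooth muscle list (miR-143, miR-145, miR-133a and miR-133b) marks the artery wall and was detected in all 12 arteries. Its lowest control sum was in control 2, 951 against 2138 to 5618 in the other controls and 360 to 975 in ligated arteries, and 2 of its 4 members passed the test. Most of each sum is miR-145. Control 2 was the lowest control for miR-143 and miR-145, but not for miR-133a (log2 level 5.39 against 4.40 to 7.03) or miR-133b (1.72 against 1.56 to 3.66). The sums of the mesenchymal list (miR-199a-3p, miR-199a-5p and miR-214) and of the striated muscle list (miR-1 and miR-206) were also at their lowest control value in control 2, 13.4 against 24.1 to 37.4 and 1.07 against 2.92 to 7.11. The leukocyte list (miR-142-3p, miR-142-5p, miR-223, miR-150 and miR-155) summed to 69.3 in control 2, 50.6 to 91.7 over all controls and 101 to 289 in ligated arteries, and 3 of its 5 members passed the test. In bulk tissue a change in the share of a cell type and a change in its RNA content cannot be told apart, and the part of these cell types in the cluster's values was not tested.

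**Figure D2:**
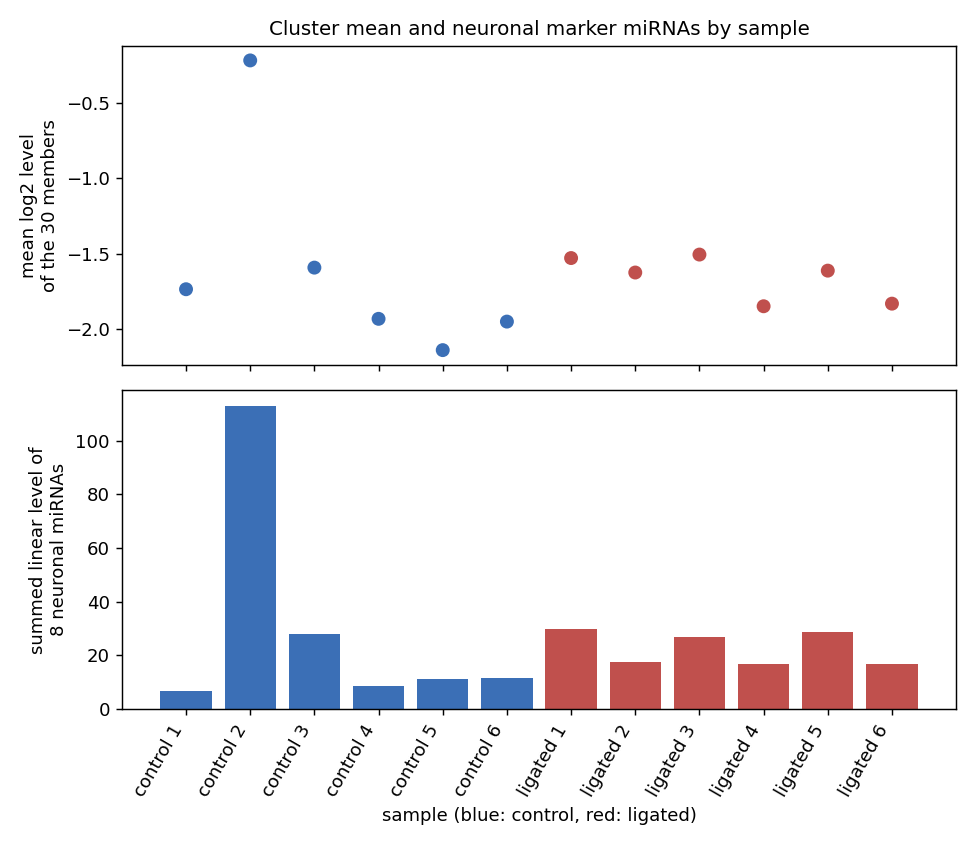
Mean log2 level of the 30 always-detected members in each artery (upper panel, points) and summed linear level of the 8 neuronal marker miRNAs (lower panel, bars from 0), blue for control and red for ligated arteries. Control 2 is the highest in both panels, at -0.22 and 113, and 84.8% of its bar is miR-138.

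With all 12 arteries, the average level of the cluster differed between ligated and control arteries by less than the spread among arteries of either group. The mean level over the 30 always-detected members was -1.59 ± 0.70 (SD, n = 6) in controls and -1.66 ± 0.15 (SD, n = 6) in ligated arteries, and -1.87 ± 0.21 (SD, n = 5) in controls without control 2. Of the 57 assays, 42 were detected in at least 4 of 6 arteries of a group and entered the limma fit over all 339 such miRNAs. At an adjusted p below 0.05 (limma, Benjamini-Hochberg over the 339), 0 of the 42 members were higher in ligated arteries, where the background over all tested miRNAs was 7.37%, and 1 was lower, where it was 5.01%. In either direction this was 2.38% of the members against 12.4% of all tested miRNAs. At an unadjusted p below 0.05 there were 3 members and 67 of all 339 miRNAs. No member separated the 6 ligated from the 6 control arteries without overlap, against a background of 7.08%.

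The median difference, ligated minus control, was -0.14 over the 42 tested members and -0.05 over all 339 miRNAs, and 18 of the 42 members lay above 0. By place, the median was -0.29 over the 7 always-detected members of the Rtl1 group, of which only miR-431 lay above 0, and -0.19 over the 22 between miR-379 and miR-410. The 1 member of Rian, miR-370, lay at 0.83. Differences of the always-detected members ran from -0.86 to 1.36, within a range of -3.75 to 2.86 for all 283 always-detected miRNAs. The intervals leave room for changes in most members: 5 of the 30 had a 95% interval wholly within 1 log2 unit (a 2-fold change) of 0, which is 16.7%, against 24.0% of the 283. The median SD among controls was 0.82 with control 2 and 0.54 without it.

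**Figure D3:**
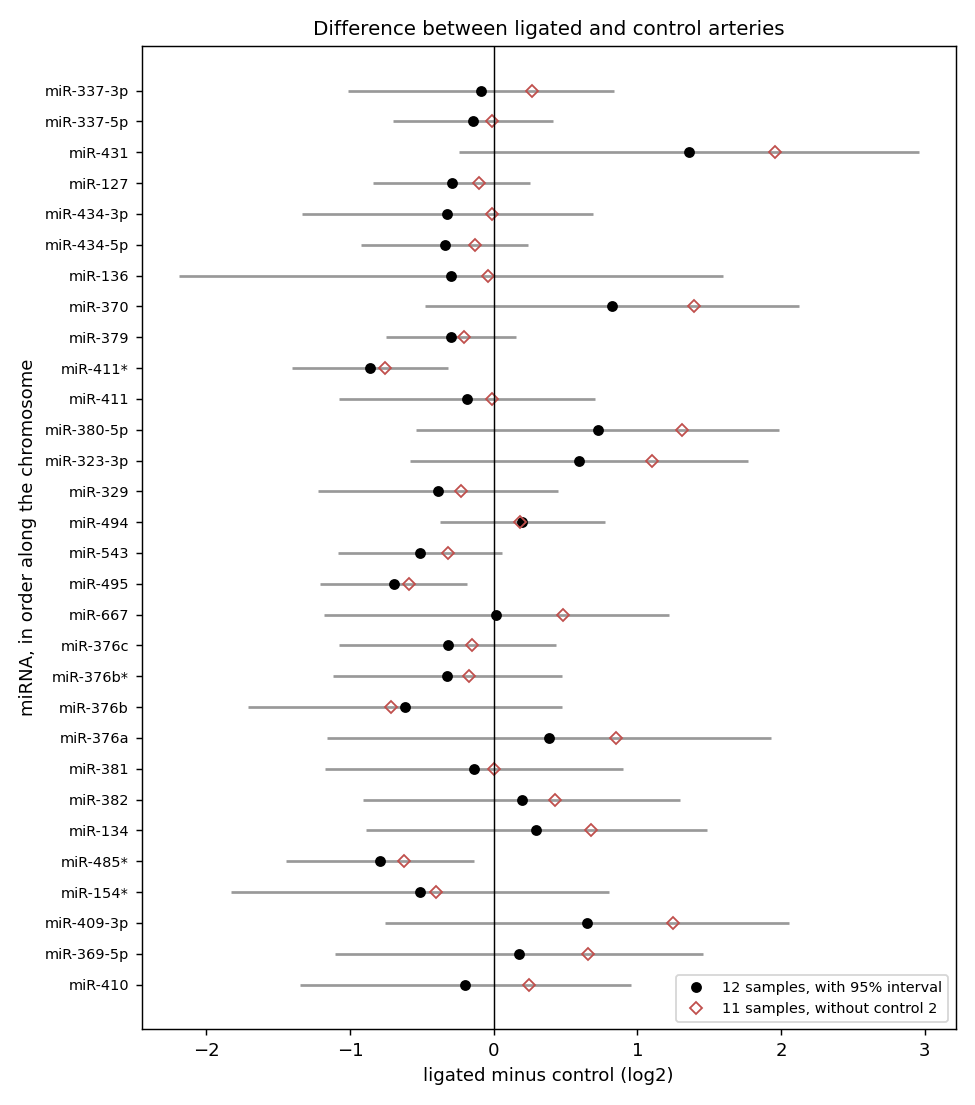
Difference in log2 level, ligated minus control, of the 30 always-detected members in order along the chromosome. Black points and grey bars give the fit of 12 arteries with its 95% interval and open diamonds the fit without control 2, where miR-431 moved from 1.36 to 1.96 and miR-411* from -0.86 to -0.76.

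miR-411*, the 3p arm of a hairpin at the start of the large group, was the member that passed the test. Its level was -3.27, -2.85 and -2.31 (lowest, median and highest) in controls and -4.35, -3.56 and -3.25 in ligated arteries. Only the highest ligated and the lowest control artery overlapped, by a narrow margin, and in all 6 same-numbered comparisons the ligated artery was the lower. Its level fell by 0.86 (SE 0.25, 95% interval -1.40 to -0.32, adjusted p = 0.0440 by limma). The call was close to the threshold: when replicate numbers were treated as blocks, its adjusted p was 0.0514 and 0 members were called (background 8.85% higher and 6.49% lower), and without control 2 the difference was -0.76 with an adjusted p of 0.0596. It was called in 2 of the 12 fits that left out 1 artery, those without control 5 or ligated 1, and the adjusted p over the 12 ran from 0.0375 to 0.0987. Scaled to the control RNAs U6 and snoRNA429 the difference was -1.06 (adjusted p = 0.543 by limma), and scaled to all control RNAs it was -0.81 (adjusted p = 0.0895). It passed with neither, though it stayed below 0. With raw Ct, where the median of all miRNAs shifted by 0.93, it was 0.13, and no direction should be read from raw values. The other arm, miR-411, had a difference of -0.18 (SE 0.41), and whether the arms differ was not tested.

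Other members with lower levels in ligated arteries did not pass. miR-495, known in the mouse as one of the miRNAs that limit blood flow recovery, had a level of -1.20, -0.70 and -0.19 in controls and of -1.82, -1.39 and -0.94 in ligated arteries. The groups overlapped through control 1, which lay among the ligated arteries. The difference was -0.70 (SE 0.23, 95% interval -1.21 to -0.19, adjusted p = 0.0830). miR-485* lay at -1.31, -0.70 and 0.28 in controls and at -2.00, -1.35 and -0.80 in ligated arteries, a difference of -0.79 (SE 0.30, adjusted p = 0.132). For both, the ligated artery was the lower in all 6 same-numbered comparisons. miR-543, which shares the 3′ end of miR-495 and in mouse cortex acts on N-cadherin, had a difference of -0.51 (95% interval -1.08 to 0.06, adjusted p = 0.284).

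Among always-detected members, the highest positive differences were those of members in which control 2 stood far above the other controls. miR-431 had levels of -2.42, -1.85 and 1.63 in controls and -1.37, -0.13 and 1.90 in ligated arteries. The 5 other controls lay below all 6 ligated arteries, while control 2 lay above all ligated arteries but 1. The difference was 1.36 (SE 0.73, 95% interval -0.24 to 2.96, adjusted p = 0.320) with 12 arteries. For miR-380-5p the levels were -4.77, -4.24 and -0.81 in controls and -3.25, -3.02 and -2.75 in ligated arteries, so that control 2 was higher and every other control lower than all ligated arteries. The difference was 0.72 (SE 0.58, adjusted p = 0.528).

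**Figure D4:**
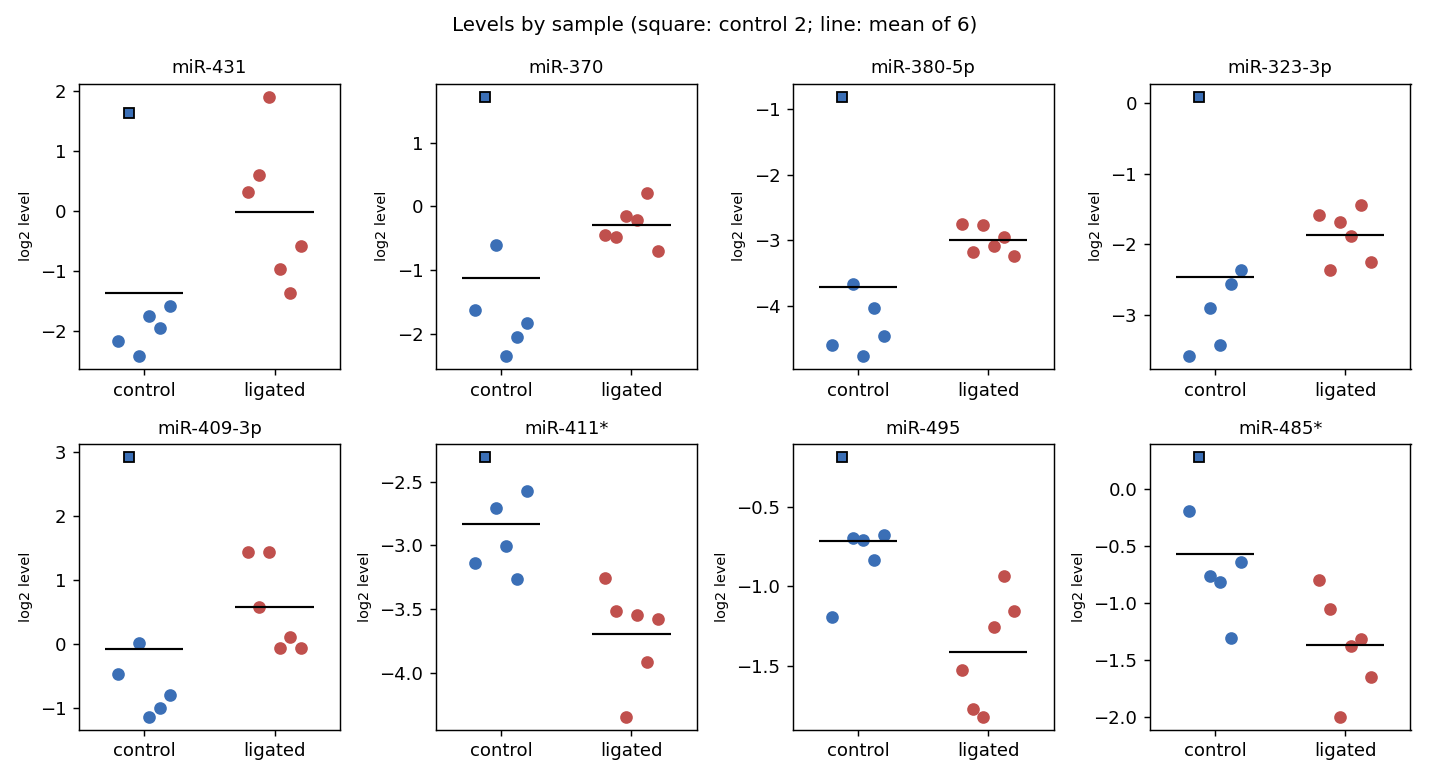
Log2 level in each artery for the 5 highest and 3 lowest differences among always-detected members (vertical axis, scaled per panel), with a line at the mean of 6 and a square for control 2. The 6 ligated arteries lie between the square and the other 5 controls for miR-380-5p and miR-323-3p, and below the square for miR-411*, miR-495 and miR-485*.

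Leaving out control 2 changed which members passed. Of the 42 members, 5 were then higher in ligated arteries (background 7.67%) and 0 lower (background 5.9%), which is 11.9% of the members. Control 2 was singled out from these same values, and the 5 are the always-detected members in which it exceeded the other controls most. Leaving it out therefore raises their differences by construction, and their calls are no independent support for a change. miR-431 was higher by 1.96 (SE 0.53, adjusted p = 0.0304) and miR-370 by 1.39 (SE 0.31, adjusted p = 0.0149). miR-380-5p was higher by 1.31 (SE 0.24, adjusted p = 0.00531), miR-409-3p by 1.25 (SE 0.37, adjusted p = 0.0463) and miR-323-3p by 1.10 (SE 0.29, adjusted p = 0.0272). All 6 ligated arteries lay above the 5 remaining controls for miR-431, miR-380-5p and miR-323-3p, and they overlapped with control 3 for miR-370 and miR-409-3p. The share of all tested miRNAs that lay apart without control 2 was not computed, so this separation has no background beside it. With array weights in limma, which count variable arteries less, 3 members were higher (background 15%), namely miR-370, miR-380-5p and miR-433, and 1 lower (background 14.7%). With all 12 arteries at equal weight, the adjusted p-values of the 5 lay between 0.320 and 0.613. Without any 1 of the other 11 arteries 0 members were called higher. The median difference of the 42 members without control 2 was 0.07.

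Arteries numbered 1 to 3 and 4 to 6 in either group formed different sets over the whole assay, which the labels do not explain. Set beside the group term, the difference between the sets passed the test in 14 of the 42 members (33.3%), against a background of 50.1%. In numbers 4 to 6, 11 members were lower (26.2%, background 22.7%) and 3 higher (7.14%, background 27.4%). The largest among always-detected members was that of miR-136, from the Rtl1 group, at -2.87 (SE 0.24, adjusted p = 1.6e-05). Its control levels were -0.38, -0.48 and -0.02 in numbers 1 to 3 and -3.45, -3.15 and -3.14 in numbers 4 to 6, and its ligated levels were -1.19, -0.78 and -0.05 in numbers 1 to 3 and -4.07, -3.40 and -2.93 in numbers 4 to 6. The sets did not overlap in either group.

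The median ligation difference of the members had opposite signs in the sets, although only miR-433 passed the test of a difference between them, given below. In numbers 1 to 3, which hold control 2, the median over the 42 members was -0.46 and 0 members were called, where the background was 1.47%. In numbers 4 to 6 the median was 0.22, and 5 members were higher (background 14.7%) and 0 lower (background 15%). Those 5 were miR-370 (1.84), miR-380-5p (1.32), miR-376a (1.25), miR-409-3p (0.97) and miR-433. The value of miR-433, 8.21, sets 3 control wells without product to the limit of 35, so it holds no spread among those controls and could only be a lower bound, if the wells did not fail. miR-431 (0.79) and miR-323-3p (0.93) did not pass, with adjusted p of 0.0541 and 0.103. miR-411* had differences of -0.99 in numbers 1 to 3 and -0.73 in numbers 4 to 6, on the same side and past the threshold in neither. With the sets as a block, 2 members were lower (background 8.85%), miR-411* (adjusted p = 0.0225) and miR-495 (adjusted p = 0.0304), and 0 were higher (background 10.9%). With that block and without control 2, a fit chosen after seeing the data, 6 members were higher (background 14.7%), namely miR-323-3p, miR-370, miR-380-5p, miR-409-3p, miR-431 and miR-433, and 2 lower (background 15%), miR-411* and miR-495.

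The difference between the sets in the effect of ligation was tested itself, and 1 of the 339 miRNAs passed (background 0.295%), the member miR-433. This miRNA lies opposite Rtl1 beside miR-127. Its Ct was 25.0, 22.0 and 24.6 in controls 1 to 3 and 40 in controls 4 to 6, while the ligated arteries lay at 22.3, 23.4 and 23.1 in numbers 1 to 3 and at 25.8, 25.9 and 25.7 in numbers 4 to 6. The miRNA was thus either readily amplified or without product, with no artery in between. With these wells set to the limit of 35, a constant in controls 4 to 6, the interaction was 8.24 (limma, adjusted p = 0.000362) and the difference over all 12 arteries 4.09 (95% interval -0.45 to 8.62, adjusted p = 0.284). Whether the 3 wells at 40 held little RNA or failed was not tested. With those wells left out, the difference was -0.85, on the other side of 0. That value sets controls 1 to 3 against ligated arteries of both sets, so it also holds the difference between the sets. Within numbers 1 to 3 alone the difference was -0.0345 (SE 0.69).

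**Figure D5:**
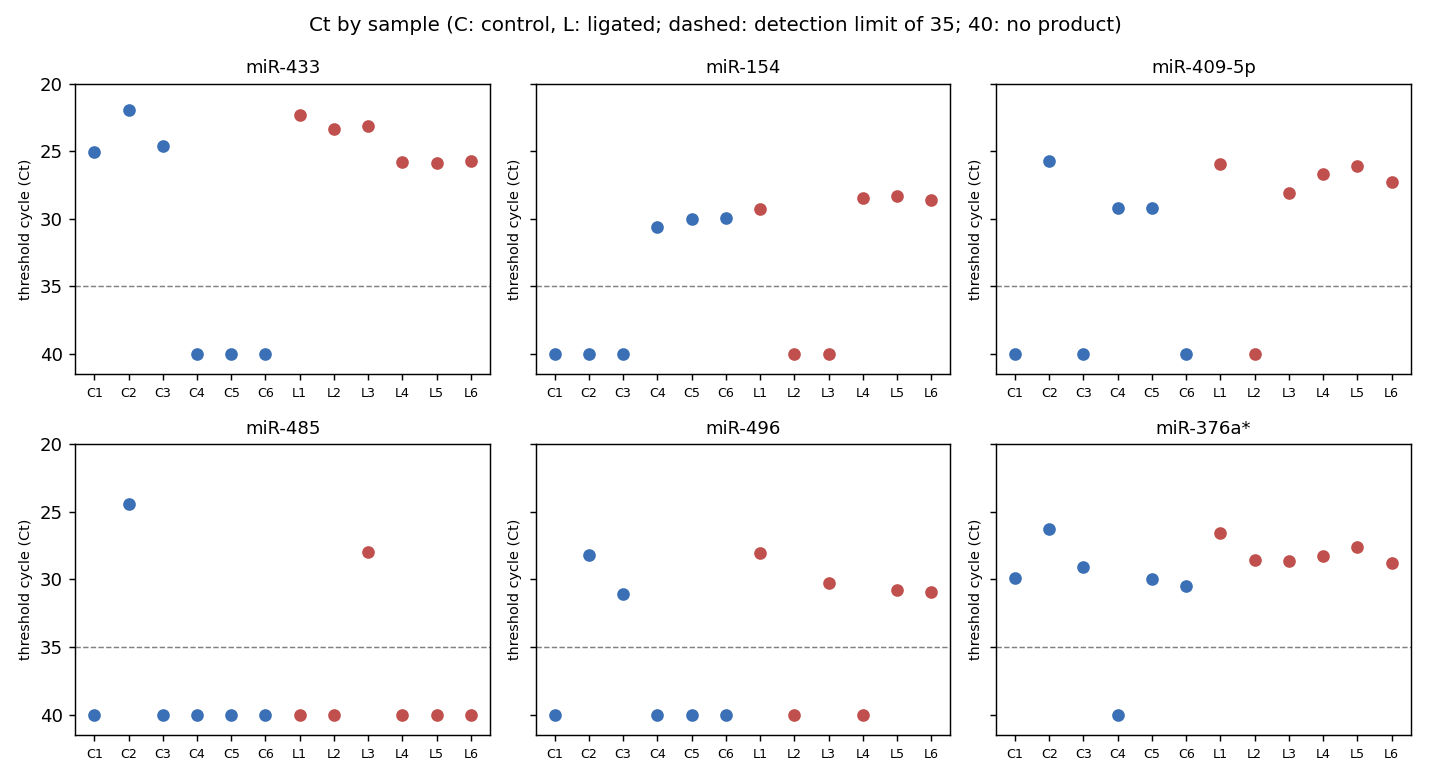
Ct in each artery for 6 members with both clearly amplified and undetected wells in the same group, on an axis that runs downward from 20 so that more RNA is higher, with a dashed line at the limit of 35. miR-433 is at 40 in controls 4 to 6, and miR-154 is at 40 in 5 of the 6 arteries numbered 1 to 3.

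Of the 57 assays, 9 had both wells below a Ct of 30 and undetected wells in the same group, as had 64 of all 513. miR-154 had a Ct of 40 in controls 1 to 3 and in ligated 2 and 3, 29.3 in ligated 1, and 28.3 to 30.6 in all 6 arteries numbered 4 to 6. Its detection followed the sets but for ligated 1, with a difference between the sets of 5.98. miR-409-5p was amplified in controls 2, 4 and 5 and in all ligated arteries but number 2. miR-485 was amplified only in control 2, at 24.4, and in ligated 3, at 28.0, and miR-496 was undetected in controls 1, 4, 5 and 6 and in ligated 2 and 4. miR-127* was undetected in control 3 and ligated 3, miR-376a* in control 4 and miR-668 in ligated 6, while miR-300 amplified only in control 4 and ligated 6.

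Both arms were tested for 10 hairpins, and in 6 of them the arms' differences had the same sign. The signs were opposite for miR-127, miR-136, miR-154 and miR-369, each with an arm not detected in every artery. The same holds for miR-376a and miR-409, whose arms shared a sign. The arms of miR-434 had differences of -0.32 (3p) and -0.34 (5p), and those of miR-337 of -0.09 (3p) and -0.14 (5p). For miR-376b the values were -0.62 and, for the star arm, -0.32, and for miR-376a they were 0.38 and 1.07. The miR-376 hairpins are known in mouse brain for A-to-I editing of their precursors, which an assay for the unedited sequence would not count. None of these values passed the test. miR-494, a neighbour of miR-329 and miR-495 in the same limb muscle studies, had a difference of 0.20 (95% interval -0.37 to 0.77) and miR-329 one of -0.39 (95% interval -1.22 to 0.45). miR-134, which limits dendritic spine size in neurons through Limk1, had a difference of 0.30 (95% interval -0.89 to 1.48), and miR-410, at the far end of the group, one of -0.20 (95% interval -1.35 to 0.95). miR-379, at its near end, had a difference of -0.30 (95% interval -0.75 to 0.16), 1 of the 5 intervals that lay within a 2-fold change. miR-376c, at -0.32, had a 95% interval from -1.07 to 0.44 and miR-382, at 0.19, one from -0.91 to 1.30. The differences of miR-154*, miR-381, miR-667 and miR-369-5p were -0.51, -0.14, 0.02 and 0.17, and none passed the test.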

How the data were processed

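Per the labels' protocols, the mirVana kit was used to isolate RNA, and the series text gives 1 sample per array. The deposited table holds raw threshold cycles (Ct) of 517 miRNA assays, of which 4 are blank, and of 6 control RNAs, whose repeats were averaged. In a deposited processed table of 519 assays, values were Ct less the average of snoRNA429 and U6, to within 5e-05 over 513 assays. The sources used here do not give the instrument, threshold or baseline.

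Undetected wells (Ct of 35 or more) were set to 35, each sample was scaled by its average over the 283 miRNAs present in all 12 samples, and limma 3.58.1 in R 4.3.3 was run on minus the scaled Ct (lmFit, eBayes, group only, Benjamini-Hochberg over 339 miRNAs, threshold 0.05). The level of an undetected well thus depends on its sample's average. For miR-376c*, which was never detected, its median was -9.65 in controls and -10.4 in ligated arteries. Undetected wells therefore counted as lower in ligated arteries, which affects the partly detected members. The fit was tested on simulated data. Each PCR cycle was assumed to double the product, and no depth applies. Figures were drawn with matplotlib 3.10.9 and sequences matched with pandas 2.3.3.

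After the group means were removed, control and ligated samples of 1 number correlated with r from 0.283 to 0.622, so the replicate number was also fitted as a block, although the labels state no pairing and 1 of 6 controls correlated best with its own number. The members, marker lists and alternatives were chosen with earlier results of these data known. Members named were those called, the 4 largest and 4 smallest differences, those with split or outlying wells, and a fixed set. miR-134, miR-369-5p, miR-381, miR-667, miR-540-3p, miR-665, miR-666-5p, miR-679 and miR-758 were named outside that rule, after their values were seen. Outlying samples had a Dixon ratio above 0.625.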

Additional observations from a re-analysis of the deposited data

Results flagged for a closer look

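The level of control 2 lay apart from the other 5 controls in 7 of the 30 always-detected members by Dixon's ratio. It stood at 3.67 for miR-127, 0.09 for miR-323-3p, -0.81 for miR-380-5p, 2.92 for miR-409-3p, 1.63 for miR-431, -1.61 for miR-434-5p and -1.62 for miR-543, each time as the highest control. The mean over the 30 members, -0.22, stood apart in the same way. Over all 283 always-detected miRNAs control 2 stood apart in 15 (5.3%), control 1 in 1 and controls 3 to 6 in 0. Among ligated arteries, number 1 stood apart in 7 and number 3 in 2. Chance alone marks about 1 in 20 groups through any of their 6 arteries, and so fewer through 1 given artery. No other artery stood apart in a member.

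The effect of ligation on miR-433 differed by 8.24 log2 units between arteries numbered 4 to 6 and 1 to 3 in the interaction test (adjusted p = 0.000362). It rests on 3 control wells without product, which were set to the limit of 35.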

How the results depend on the processing

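The number of members called higher, 0, and lower, 1, moved with the choices. The count of lower members was 0 when scaled to U6 and snoRNA429 or to all control RNAs, with raw Ct, at a limit of 32, without a filter, with the deposited processed table, with the replicate block, in either set alone and with limma's trend and robust options, and 2 with the sets as a block. It stayed at 1 under the other planned settings run on all 12 arteries. Higher members numbered 3 with array weights (background 15%) and 5 in numbers 4 to 6 alone (background 14.7%). With the sets as a block and without control 2 there were 6 higher (background 14.7%) and 2 lower (background 15%). Leaving out 1 artery gave 0 to 5 higher members, 0 to 1 lower and a median difference from -0.26 to 0.07. The replicate block ended the call of miR-411* and changed no other call among members. The median difference was 0.85 with raw Ct, where the median of all miRNAs shifted by as much (0.93), so that no direction should be read from raw values. Members differing between the sets numbered 14 (33.3%, background 50.1%), but 25 when scaled to U6 and snoRNA429 or with raw Ct and 29 without a filter. No background stands beside the counts of these other settings, and without a filter more members were tested. The rise is therefore no result about the members. The interaction call of miR-433 fell to 0 when only miRNAs detected in all 12 arteries were tested, since miR-433 was then not tested.

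Differences of single members that changed sign follow, of which only that of miR-411* had passed the test with all 12 arteries. Scaled to U6 and snoRNA429 the differences were -0.14 for miR-136*, -0.0103 for miR-382 and -0.0058 for miR-494. Scaled to the median the difference was -0.0172 for miR-136*. Without any scaling (raw Ct) the differences were 0.69 for miR-127, 0.69 for miR-136, 0.47 for miR-154*, 0.49 for miR-299*, 0.60 for miR-329, 0.90 for miR-337-3p, 0.84 for miR-337-5p, 0.66 for miR-376b*, 0.37 for miR-376b, 0.67 for miR-376c, 0.69 for miR-379, 0.79 for miR-410, 0.13 for miR-411*, 0.80 for miR-411, 0.66 for miR-434-3p, 0.64 for miR-434-5p, 0.19 for miR-485*, 0.29 for miR-495 and 0.47 for miR-543. At a limit of 32 the difference was -0.40 for miR-496. With undetected wells missing the differences were -0.85 for miR-433 and -0.76 for miR-496. With undetected wells at 40 the difference was 0.34 for miR-299*. With the deposited processed table the differences were 0.14 for miR-299*, -0.0103 for miR-382 and -0.0058 for miR-494. In numbers 1 to 3 alone the differences were -0.47 for miR-127*, -0.0602 for miR-136*, -0.19 for miR-370, -0.45 for miR-376a*, -0.48 for miR-376a, -0.30 for miR-382, -0.0345 for miR-433, -0.12 for miR-494 and -0.64 for miR-496. In numbers 4 to 6 alone the differences were 0.0911 for miR-127, 0.41 for miR-154*, 0.0121 for miR-299*, 0.42 for miR-337-3p, 0.13 for miR-376b* and 0.11 for miR-410. With array weights the differences were 0.0417 for miR-127, 0.30 for miR-154*, 0.0723 for miR-299*, 0.34 for miR-337-3p, 0.0102 for miR-337-5p, 0.013 for miR-376b* and 0.0227 for miR-410. With the sets as a block and without control 2, chosen after seeing the data, the differences were -0.0594 for miR-136*, 0.21 for miR-337-3p, 0.0401 for miR-337-5p and 0.15 for miR-410. Leaving out 1 artery moved the difference from -0.37 to 1.26 for miR-127*, -0.18 to 0.41 for miR-136*, -0.70 to 0.10 for miR-136, -1.01 to 0.13 for miR-299*, -0.31 to 0.27 for miR-337-3p, -0.0398 to 0.45 for miR-382 and -0.41 to 0.25 for miR-410. The limits are the 6 arteries a group, control 2, the unexplained sets and wells that either amplified or did not.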

Other observations

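Outside the chosen names, 8 assays measured other miRNAs of the same imprinted region, and 3 of them were tested. The differences, ligated minus control, were 0.29 for miR-544 (adjusted p = 0.830 by limma), -0.44 for miR-673-3p (adjusted p = 0.892) and -0.43 for miR-673-5p (adjusted p = 0.284), and none passed. Control 2 exceeded the mean of the other 5 controls by 3.05 for miR-544, 2.31 for miR-673-3p and 0.48 for miR-673-5p.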
